A study of Rattus norvegicus with 12 samples.

Results

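Antioxidant defence in the rat prefrontal cortex was described through 6 genes: Sod1 (ENSRNOG00000002115), Sod2 (ENSRNOG00000019048), Cat (ENSRNOG00000008364), Nfe2l2 (ENSRNOG00000001548), Nqo1 (ENSRNOG00000012772) and Hmox1 (ENSRNOG00000014117). They were taken by Ensembl identifier from the 43206 genes of the deposited tables, and all 6 were found there. The tissue came from rats of the SD strain, aged 28 postnatal days, and gave 12 sequencing libraries, 4 in each of 3 groups. The acupuncture group is named in the labels by its treatment, and the study's title gives that treatment to animals with hypoxic-ischemic brain damage (HIBD). The HIBD model group had that damage, and the normal group carries no other description. The labels used here state no sham procedure, no time or method of injury, no acupuncture schedule and no sex. Whether each library came from a separate animal is not said in words. The p-values therefore rest on the spread among libraries, part of which may be technical.

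Superoxide, a by-product of respiration, is converted to hydrogen peroxide by superoxide dismutases, and the peroxide is then broken down by catalase and other peroxidases. The transcription factor NRF2, encoded by Nfe2l2, is held at low levels by KEAP1 and, when released, binds antioxidant response elements and raises the transcription of genes that include Nqo1 and Hmox1. In the brain, oxygen that returns after hypoxia and ischemia is a known source of superoxide, which is why these genes are often read out in hypoxic-ischemic injury.

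Promoters are shown for 3 of the genes. Sod1 and Nqo1 had the lowest p-values against normal libraries, and Sod2 held the only match to the antioxidant response element core among the members searched. Each sequence is the 250 bases before the start site given by RefSeq on build GRCr8, written 5′ to 3′ on the strand of the gene. Capitals mark matches on either strand to TGACNNNGC (the response element core), TATAAA (the TATA box), CCAAT (the CCAAT box) and GGGCGG (the GC box).
Sod1 (chr11:42942573-42942822, + strand): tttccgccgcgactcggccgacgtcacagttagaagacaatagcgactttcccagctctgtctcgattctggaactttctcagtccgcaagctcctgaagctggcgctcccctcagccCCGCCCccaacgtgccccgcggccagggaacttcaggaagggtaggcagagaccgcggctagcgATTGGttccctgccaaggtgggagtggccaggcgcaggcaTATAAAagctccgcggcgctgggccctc
Sod2 (chr1:50050169-50050418, - strand): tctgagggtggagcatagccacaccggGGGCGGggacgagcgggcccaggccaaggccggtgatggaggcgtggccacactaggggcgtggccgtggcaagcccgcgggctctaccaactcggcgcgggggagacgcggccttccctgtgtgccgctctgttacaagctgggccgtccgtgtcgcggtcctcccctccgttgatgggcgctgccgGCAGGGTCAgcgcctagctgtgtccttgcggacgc
Nqo1 (chr19:52220268-52220517, - strand): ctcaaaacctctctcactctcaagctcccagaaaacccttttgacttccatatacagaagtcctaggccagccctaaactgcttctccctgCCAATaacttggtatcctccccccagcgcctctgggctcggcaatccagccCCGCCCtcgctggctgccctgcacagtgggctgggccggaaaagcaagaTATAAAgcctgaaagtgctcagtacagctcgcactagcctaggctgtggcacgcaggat
The TATA box lay at positions -28 to -23 of the Sod1 promoter and -59 to -54 of the Nqo1 promoter, counted from the start site. The Sod2 promoter had no match to it in this window. On the strand opposite to the gene, the Sod2 window held the response element core at positions -35 to -27, where the gene's strand reads GCAGGGTCA. Over the 33469 rat promoters of the same length, 10.1% held the response element core on either strand, 12.9% the TATA box, 34% the CCAAT box and 30.5% the GC box. Promoters were found for 5 of the 6 members. The windows of Sod1, Nqo1, Cat and Nfe2l2 had no match to the response element core, which says only that these letters were not in the 250 bases searched. The Cat window held the CCAAT box at 4 places and the Nfe2l2 window the GC box at 6 places, of which the 2 from -40 to -30 share 1 base. No other matches overlapped.

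The levels of the 6 genes spanned a wide range. In FPKM (fragments scaled by transcript length and library size, the unit in which genes can be compared with each other), Sod1 averaged 79.4 ± 17.5 over the 12 libraries and Sod2 58.8 ± 8.86 (SD, n = 12). Cat averaged 17.0 ± 1.68, Nfe2l2 7.01 ± 1.96, Nqo1 5.40 ± 1.65 and Hmox1 2.18 ± 0.575 FPKM. Among the 27885 genes that passed the filter on low values, these means stood at the percentiles 97.6, 96.4, 84.7, 70.9, 66.8 and 54.0. All 6 members passed that filter. The FPKM of Sod1 was above that of Sod2 in all 12 libraries, with a median ratio of 1.36 and a range of 1.13 to 1.54. The ranges of the FPKM of both genes over libraries overlapped in HIBD model and normal libraries, so that order is seen within libraries. Nfe2l2 was above Nqo1 in 11 of 12 libraries, and their ranges overlapped in every group. Nqo1 was above Hmox1 in all 12 libraries, although their ranges overlapped in HIBD model libraries. Each gene rested on 1 Ensembl transcript, with no transcript added by the authors' assembly. The lowest deposited value of a member in any library was an estimated count of 554, for Hmox1.

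Totals of estimated counts ranged from 714904584 to 1090316733 per library, in units whose worth in reads is unknown. One library stood apart from its group. Loci named by the authors' transcript assembler, called assembled loci here, took 1.51% of the estimated counts in normal replicate 10 and 0.795% to 0.874% in normal replicates 8, 11 and 13. Their share averaged 1.79 ± 0.530% in acupuncture, 1.90 ± 0.385% in HIBD model and 1.01 ± 0.337% in normal libraries (SD, n = 4). Comparisons with the normal group, and the correlations across libraries that passed adjustment, are therefore also given without normal replicate 10. In bulk tissue, fewer cells of a type and less RNA per cell cannot be told apart. Markers of cell types were not analysed here, because neither the files nor the reference tables pair the Ensembl identifiers with gene names.

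None of the 6 genes passed an edgeR adjusted p of 0.05 in any of the 3 comparisons. DESeq2 called 1 of them, Sod1, between acupuncture and normal libraries, where it called 15.5% of all genes. Between HIBD model and normal libraries, 5 of the 6 log2 fold changes were below 0, with a median of -0.19 over the 6 genes and 0.01 over all 27885 genes tested. Between acupuncture and normal libraries, all 6 were below 0, with a median of -0.27 over the 6 and 0.02 over all. Between acupuncture and HIBD model libraries, 5 of 6 were below 0, with medians of -0.05 and -0.0017. Of all genes tested, 49.2%, 48.7% and 50.3% had a log2 fold change below 0 in these comparisons. Many of those genes had low levels. Over the 15486 genes whose mean log2 CPM was 0 or more, which leave out Hmox1, the medians were -0.06, -0.06 and 0.0080. An adjusted p of 0.05 was passed by 0.0968% of all genes between HIBD model and normal libraries, by 0.0825% between acupuncture and normal libraries and by 0.0% between acupuncture and HIBD model libraries, where DESeq2 called 0.667%. At an unadjusted p under 0.05, 2 of the 6 members were counted in each comparison with normal, Sod1 and Nqo1, against 22.4% and 24.5% of all genes. None of the members was below that p between acupuncture and HIBD model, against 5.31% of all genes. No member had every HIBD model library below or above every normal library, which held for 5.39% (below) and 6.13% (above) of all genes, and for 7.48% (below) on the FPKM scale. Both comparisons with normal use the same normal libraries, so their values are not independent of each other.

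**Figure D1:**
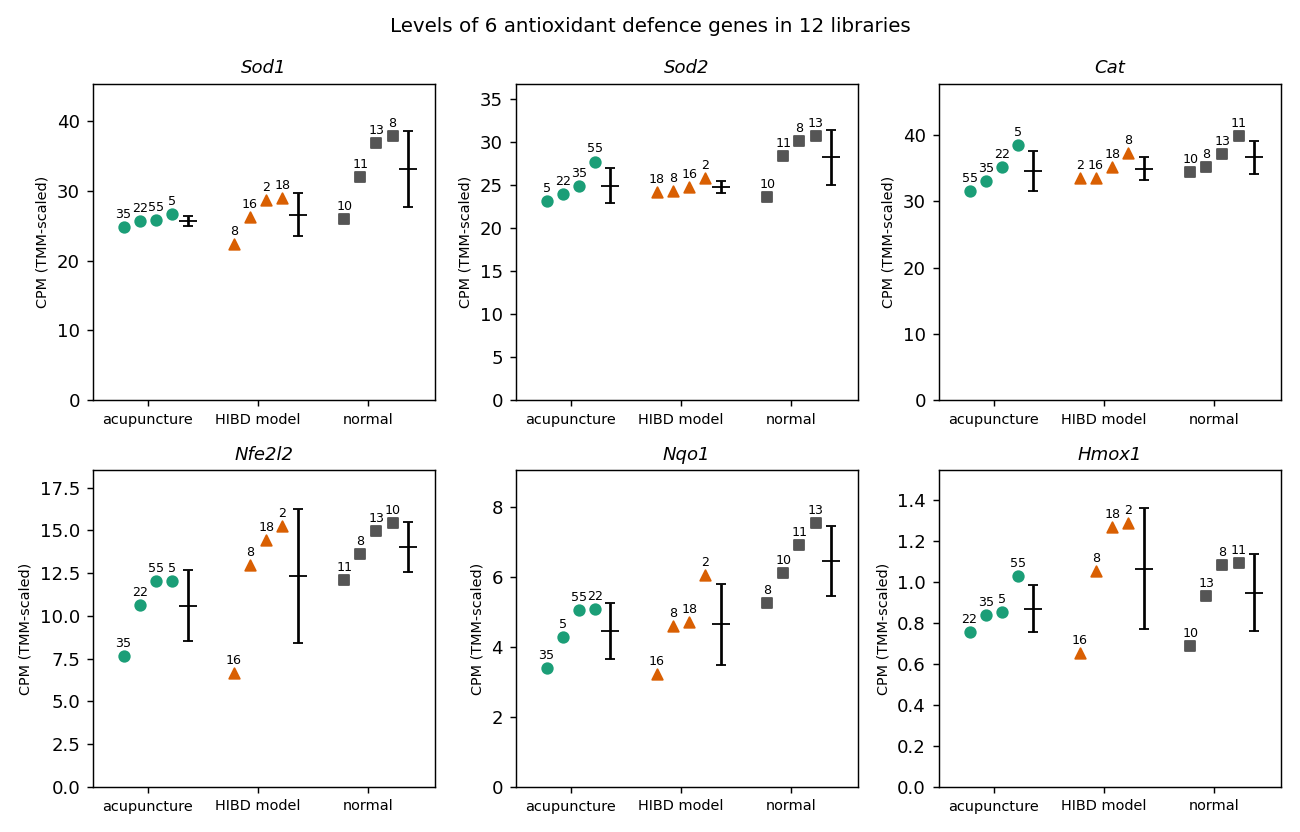
Level of each gene in CPM (estimated counts scaled to a common library total, with TMM factors) in the 12 libraries, 1 panel per gene, with the vertical axis from 0. Points are libraries with their replicate numbers, sorted by level within a group, and bars beside them give the mean ± SD (n = 4). Sod1 was 24.8 to 26.6 CPM in acupuncture libraries, against 26.0 to 37.8 CPM in normal libraries.

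Sod1 encodes the copper-zinc superoxide dismutase of the cytosol. Its level was 26.6, 25.6, 24.8 and 25.8 CPM in acupuncture replicates 5, 22, 35 and 55. In HIBD model replicates 2, 8, 16 and 18 it was 28.7, 22.4, 26.3 and 29.0 CPM. In normal replicates 8, 10, 11 and 13 it was 37.8, 26.0, 32.0 and 36.9 CPM. Normal replicates 8, 11 and 13 lay above all 8 libraries outside the normal group, while normal replicate 10 lay among them, so the groups overlapped. The share of all genes with that order of libraries was not determined. The acupuncture libraries were close together, with an SD of 2.90% of the mean, against 11.6% in HIBD model and 16.4% in normal libraries. The level in HIBD model was 0.802 times that in normal libraries (log2 fold change -0.32, SE 0.12, 95% interval of the fold 0.667 to 0.964, edgeR adjusted p = 0.159). In acupuncture it was 0.775 times that in normal libraries (log2 fold change -0.37, SE 0.12, interval 0.645 to 0.932, edgeR adjusted p = 0.116). Without normal replicate 10, Sod1 passed in both, with log2 fold changes of -0.40 (edgeR adjusted p = 0.0392) and -0.47 (edgeR adjusted p = 0.0230). In that fit 10.6% and 10.8% of all genes passed. Normal replicate 10 was the lowest normal library for Sod1, so leaving it out raises the normal mean. Without normal replicate 8 the values were -0.24 and -0.30 (edgeR adjusted p = 0.428 and 0.283). Without normal replicate 11 they were -0.33 and -0.39 (edgeR adjusted p = 0.274 and 0.193). Without normal replicate 13 they were -0.25 and -0.31 (edgeR adjusted p = 0.374 and 0.282). A check for outlying libraries, by gap over range, flagged 0 of 18 gene and group sets. With all libraries, DESeq2 gave an adjusted p of 0.0416 for acupuncture against normal and 0.114 for HIBD model against normal, where it called 15.5% and 13.5% of all genes.

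Sod2 encodes the manganese superoxide dismutase of the mitochondrial matrix. It was measured at 23.1, 23.9, 24.9 and 27.7 CPM in acupuncture replicates 5, 22, 35 and 55. HIBD model replicates 2, 8, 16 and 18 had 25.8, 24.3, 24.7 and 24.2 CPM, and normal replicates 8, 10, 11 and 13 had 30.1, 23.6, 28.3 and 30.6 CPM. As for Sod1, normal replicates 8, 11 and 13 were above all 8 libraries of the other groups, an order whose share among all genes was not determined. Normal replicate 10 was below every HIBD model library. The fold between HIBD model and normal was 0.878 (log2 fold change -0.19, SE 0.09, interval 0.766 to 1.01, edgeR adjusted p = 0.248). Between acupuncture and normal it was 0.884 (log2 fold change -0.18, SE 0.09, interval 0.771 to 1.01, edgeR adjusted p = 0.248). Leaving out normal replicate 10 gave log2 fold changes of -0.25 and -0.25, which did not pass (edgeR adjusted p = 0.0651 and 0.0591). The ratio of Sod1 to Sod2, in FPKM, averaged 1.27 ± 0.117 in acupuncture, 1.32 ± 0.143 in HIBD model and 1.44 ± 0.0857 in normal libraries (SD, n = 4). On the log2 scale the ratio differed by -0.18 between acupuncture and normal (exact permutation test, two-sided, p = 0.0857, and 0.257 after adjustment over 3 comparisons) and by -0.13 between HIBD model and normal (exact permutation p = 0.2, adjusted 0.3). Between acupuncture and HIBD model it differed by -0.05 (exact permutation p = 0.657). With 4 libraries against 4 the smallest possible p is 0.0286. When normal replicate 10 was left out, the log2 differences were -0.21 between acupuncture and normal and -0.16 between HIBD model and normal (exact permutation p = 0.114 and 0.114, adjusted 0.171 and 0.171), where the smallest possible p is 0.0571.

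Cat encodes catalase, which breaks down hydrogen peroxide, mainly in peroxisomes. On the TMM scale with all 12 libraries, its log2 fold changes against normal libraries were the closest to 0 of the 6 genes. The level ran from 31.6 to 38.5 CPM in acupuncture, 33.6 to 37.2 CPM in HIBD model and 34.4 to 39.8 CPM in normal libraries. All 3 ranges overlapped. The log2 fold change was -0.07 between HIBD model and normal (SE 0.08, interval of the fold 0.848 to 1.07, edgeR adjusted p = 0.653) and -0.08 between acupuncture and normal (SE 0.08, interval 0.841 to 1.06, edgeR adjusted p = 0.545). Without normal replicate 10 the values were -0.08 and -0.11, and Hmox1 had a smaller change between HIBD model and normal, 0.06. A difference of more than 15.9% in either direction lay outside both intervals, which hold for the TMM scale with all libraries and not for the FPKM scale.

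Nfe2l2 encodes NRF2, the regulator of the antioxidant response. The level was 12.05, 10.7, 7.64 and 12.02 CPM in acupuncture replicates 5, 22, 35 and 55, and 15.2, 13.0, 6.67 and 14.5 CPM in HIBD model replicates 2, 8, 16 and 18. Normal replicates 8, 10, 11 and 13 had 13.6, 15.4, 12.1 and 14.9 CPM. All 4 acupuncture libraries were below the lowest normal library, by a narrow margin of 12.05 against 12.10 CPM, and in HIBD model libraries only replicate 16 was below the normal range. Of all genes tested, 8.6% had every acupuncture library below every normal library and 9.0% had every one above. The fold between acupuncture and normal was 0.755 (log2 fold change -0.41, SE 0.24, interval 0.525 to 1.09, edgeR adjusted p = 0.322). Between HIBD model and normal it was 0.879 (log2 fold change -0.19, SE 0.24, interval 0.612 to 1.26, edgeR adjusted p = 0.708), and without HIBD model replicate 16 the log2 fold change was 0.02. Without normal replicate 10, the log2 fold change was -0.35 between acupuncture and normal and -0.12 between HIBD model and normal. Among HIBD model libraries the SD was 31.5% of the mean. Over genes of at least 1 CPM in that group, the median was 17.4% and the upper quartile 32.8%. In normal libraries the SD of Nfe2l2 was 10.6% of the mean, against 11.4% for the median gene.

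Nqo1 encodes a quinone reductase that is widely used as a readout of NRF2. It stood at 4.27, 5.09, 3.41 and 5.05 CPM in acupuncture replicates 5, 22, 35 and 55. HIBD model replicates 2, 8, 16 and 18 had 6.05, 4.59, 3.23 and 4.71 CPM. In normal replicates 8, 10, 11 and 13 the values were 5.25, 6.12, 6.91 and 7.54 CPM. All acupuncture libraries and 3 of 4 HIBD model libraries were below every normal library. The former held for 8.6% of all genes tested, and the share of all genes for the latter was not determined. Nqo1 had the lowest log2 fold change of the 6 genes in both comparisons with normal. It was 0.719 times normal in HIBD model libraries (log2 fold change -0.48, SE 0.20, interval 0.530 to 0.976, edgeR adjusted p = 0.195). In acupuncture libraries it was 0.690 times normal (log2 fold change -0.54, SE 0.20, interval 0.508 to 0.937, edgeR adjusted p = 0.143). Of the 15486 genes whose mean log2 CPM was 0 or more, 7.19% and 8.01% had log2 fold changes below these. Without normal replicate 10 the values were -0.48 and -0.56 (edgeR adjusted p = 0.227 and 0.155).

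Hmox1 encodes heme oxygenase 1, which degrades heme and is induced by many stresses. This was the lowest of the 6 genes, at 0.856, 0.757, 0.837 and 1.03 CPM in acupuncture replicates 5, 22, 35 and 55. In HIBD model replicates 2, 8, 16 and 18 it was 1.29, 1.05, 0.652 and 1.27 CPM, and in normal replicates 8, 10, 11 and 13 it was 1.08, 0.690, 1.09 and 0.930 CPM. HIBD model libraries held both the highest and the lowest value of the 12, so that the group spanned the other groups. It was the only member with a log2 fold change above 0 between HIBD model and normal (0.17, SE 0.24, interval of the fold 0.773 to 1.63, edgeR adjusted p = 0.747). Between acupuncture and normal the log2 fold change was -0.13 (SE 0.24, interval 0.631 to 1.33, edgeR adjusted p = 0.794). Without normal replicate 10, which had the lowest normal value, these log2 fold changes were 0.06 and -0.25 (edgeR adjusted p = 0.918 and 0.567). Without HIBD model replicate 16, the lowest library of its group, the log2 fold change between HIBD model and normal was 0.34 (edgeR adjusted p = 0.406).

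**Figure D2:**
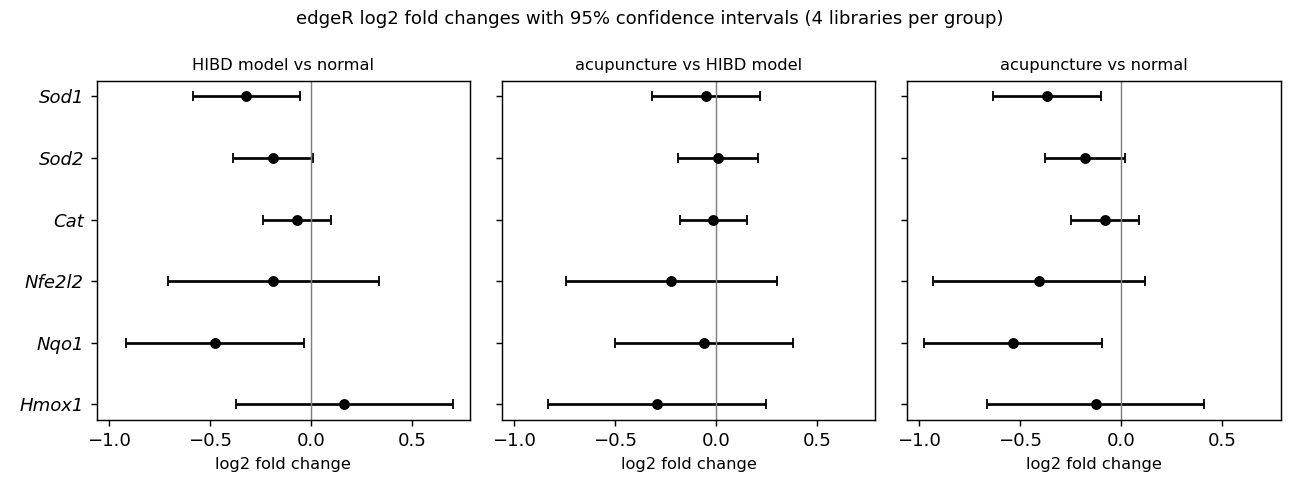
Log2 fold change of each gene in the 3 comparisons, from edgeR fitted to all 12 libraries, with the first group named in a panel title over the second. Points are estimates and bars 95% confidence intervals. The intervals of Sod1 and Nqo1 lie below 0 in both comparisons with normal, before adjustment for the 27885 genes tested.

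Between acupuncture and HIBD model libraries, which asks what differed after the treatment, the 6 genes each gave an edgeR adjusted p of 0.9998. Over all genes 1481 had an unadjusted p under 0.05. Hmox1 had the lowest log2 fold change, -0.29 (SE 0.24, interval of the fold 0.562 to 1.19), and Nfe2l2 the next, -0.22 (SE 0.24, interval 0.597 to 1.23). Without HIBD model replicate 16, in which both genes were lowest, their log2 fold changes were -0.47 and -0.43 (edgeR adjusted p = 0.497 and 0.447). Sod1, Sod2, Cat and Nqo1 had log2 fold changes of -0.05, 0.01, -0.01 and -0.06. Their intervals of the fold were 0.804 to 1.16 for Sod1, 0.878 to 1.15 for Sod2, 0.883 to 1.11 for Cat and 0.707 to 1.30 for Nqo1. The ranges of the groups overlapped for all 6 genes, while 1.01% of all genes had every acupuncture library below every HIBD model library and 1.26% every one above (0.8% below on the FPKM scale). For Sod1, Nfe2l2, Nqo1 and Hmox1, every acupuncture library lay within the range of the HIBD model libraries. The share of all genes for which this held was not determined.

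**Figure D3:**
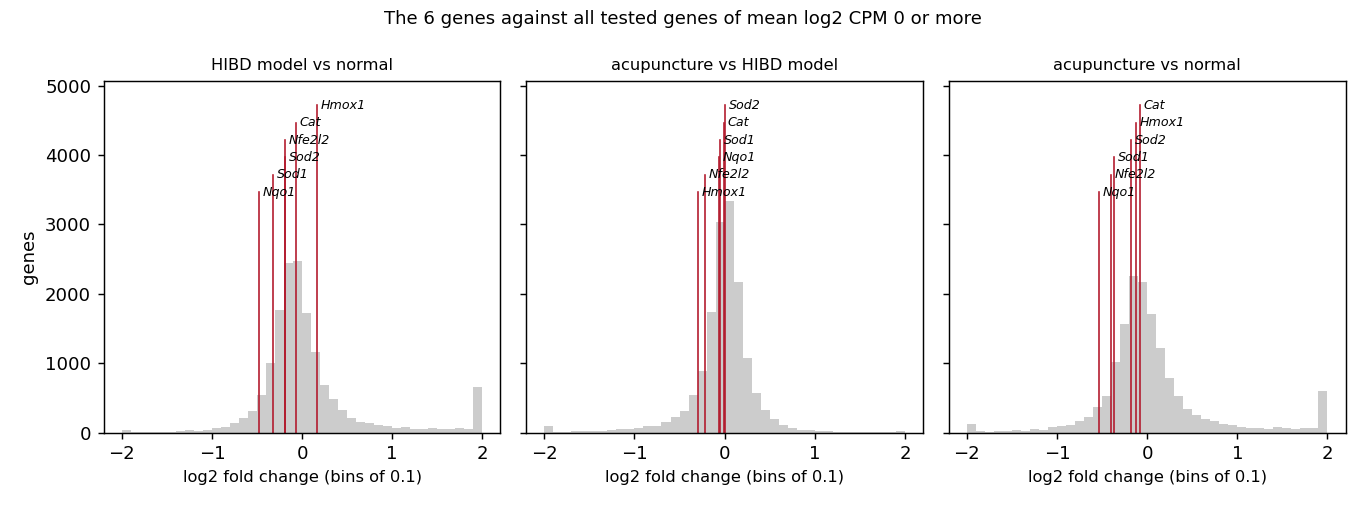
Distribution of log2 fold changes over the 15486 tested genes whose mean log2 CPM was 0 or more, in bins of 0.1 with values beyond the axis in the outermost bins. Vertical lines mark the 6 genes, and their heights only separate the names. Against normal, 15.03% and 7.19% of these genes lie to the left of Sod1 and Nqo1 in HIBD model, and 14.1% and 8.01% in acupuncture.

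The scale of the values mattered for the comparisons with normal. On the deposited FPKM scale, Sod1 was 69.5, 65.8, 66.1 and 71.7 in acupuncture replicates 5, 22, 35 and 55, and 108.0, 75.7, 91.5 and 111.7 in normal replicates 8, 10, 11 and 13. All 4 acupuncture libraries were then below all normal libraries for Sod1, Nfe2l2 and Nqo1, which was also so for 15.4% of all genes tested. With log2(FPKM + 0.1) in limma, the log2 fold change of Sod1 was -0.49 between acupuncture and normal (limma adjusted p = 0.0640) and -0.41 between HIBD model and normal (limma adjusted p = 0.112). That of Cat was -0.22 and -0.17 in these comparisons (limma adjusted p = 0.135 and 0.261), larger changes than on the TMM scale. Between HIBD model and normal, Hmox1 then had the smallest change of the members, 0.04. On that scale, the median over genes whose mean log2 CPM was 0 or more was itself -0.18 and -0.16, against -0.06 and -0.06 on the TMM scale. With normal replicate 10 left out, Sod1 passed on the FPKM scale in both comparisons, with log2 fold changes of -0.60 between acupuncture and normal and -0.52 between HIBD model and normal (limma adjusted p = 0.0239 and 0.0410). Sod2 then passed at the threshold between acupuncture and normal (-0.39, limma adjusted p = 0.0499) and did not between HIBD model and normal (-0.36, limma adjusted p = 0.0673). In that fit 13.8% and 13.1% of all genes passed.

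The dismutases varied with the share of assembled loci, a relation that was not planned in advance. Across the 12 libraries, the log2 level of Sod2 had a Pearson correlation of -0.92 with the log2 share (permutation p = 3.0e-05, adjusted over 6 genes 0.00018) and a Spearman correlation of -0.80 (permutation p = 0.00249, adjusted 0.0149). Without the 2 libraries farthest from the median share it was -0.86. With the group means removed, which leaves the variation within groups, it was -0.89 (permutation within groups, p = 0.00306, adjusted 0.00918). For Sod1 the Pearson correlation was -0.79 (permutation p = 0.00199, adjusted 0.00597), the Spearman correlation -0.58 (permutation p = 0.0513, adjusted 0.103), and r without the 2 farthest libraries -0.55. Within groups it was -0.56 (permutation p = 0.0655, adjusted 0.131), which did not pass. The NRF2 target Nqo1 also passed over all libraries but not within groups. It had r = -0.68 (permutation p = 0.0162, adjusted 0.0324), rho = -0.76 (permutation p = 0.00603, adjusted 0.0181) and r = -0.65 without the 2 farthest libraries. Within groups its r was -0.34 (permutation p = 0.298, adjusted 0.447). For the other NRF2 target, Hmox1, the relation passed within groups but not over all libraries. It had r = -0.43 (permutation p = 0.165, adjusted 0.198), rho = -0.50 (permutation p = 0.106, adjusted 0.127) and r = -0.45 without the 2 farthest libraries. Within groups it had r = -0.78 (permutation p = 0.00195, adjusted 0.00918). Neither the peroxide enzyme Cat nor the regulator Nfe2l2 passed. Cat and Nfe2l2 had r = -0.12 and -0.43 (permutation p = 0.720 and 0.164, adjusted 0.720 and 0.198), with rho = 0.08 and -0.50 (permutation p = 0.820 and 0.0975, adjusted 0.820 and 0.127). Without the 2 farthest libraries their r was -0.02 and -0.32. Of 13672 Ensembl genes at that level or above, 0.534% had an r at or below that of Sod2, 7.10% at or below that of Sod1, 16.0% at or below that of Nqo1 and 36.8% at or below that of Hmox1. The median r was -0.25. These shares are for r over all 12 libraries. The shares for r within groups, or without normal replicate 10, were not determined. Leaving out normal replicate 10, r was -0.96 for Sod2 (permutation p = 2.0e-05, adjusted 0.00012), -0.80 for Sod1 (permutation p = 0.00336, adjusted 0.0101) and -0.70 for Nqo1 (permutation p = 0.0167, adjusted 0.0334). Within groups and without that library, r was -0.84 for Sod2 and -0.69 for Hmox1 (permutation p = 0.0127 and 0.0154, adjusted 0.0463 and 0.0463), against -0.23 for Sod1 and -0.36 for Nqo1 (permutation p = 0.497 and 0.328, adjusted 0.497 and 0.393). With the log2 share as a covariate in edgeR, the log2 fold changes of Sod1 were -0.08 between HIBD model and normal and -0.15 between acupuncture and normal (edgeR adjusted p = 0.9998 and 0.947). Those of Sod2 were 0.07 and 0.05 (edgeR adjusted p = 0.9998 and 0.965), and those of Hmox1 were 0.75 and 0.41 (edgeR adjusted p = 0.9998 and 0.887, unadjusted 0.0195 and 0.142). The share itself differs between the groups, so its part and that of the group cannot be told apart in this fit.

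**Figure D4:**
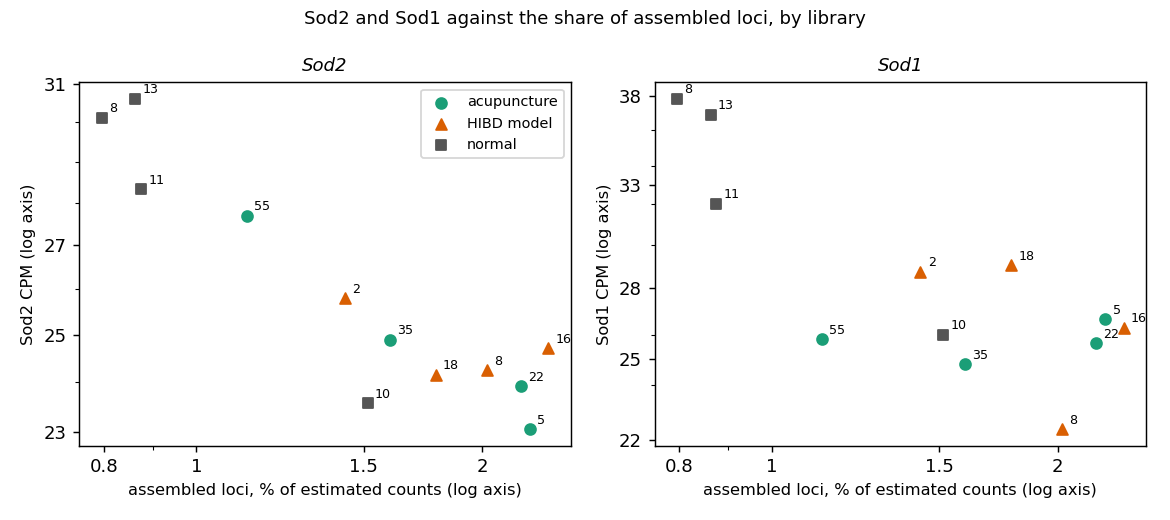
Level of Sod2 and Sod1 in CPM against the percentage of estimated counts in assembled loci, both on log axes that do not start at 0. Points are the 12 libraries with their replicate numbers. Normal replicate 10, with a share of 1.51%, lies among the acupuncture and HIBD model libraries in both panels, at 23.6 CPM of Sod2 and 26.0 CPM of Sod1.

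Among the 15 pairs of the 6 genes, 2 had a correlation over the 12 libraries that passed adjustment. The share of all pairs of genes with such a correlation was not determined, so these are not shown to be particular to the members. For Nfe2l2 and Nqo1, the regulator and its target, Pearson's r of log2 CPM was 0.80 (permutation p = 0.00226, adjusted over 15 pairs 0.0170) and Spearman's rho 0.70 (permutation p = 0.0146, adjusted 0.219). HIBD model replicate 16 and acupuncture replicate 35 were the lowest libraries for both genes. Without them, the 2 libraries farthest from the median of Nfe2l2, r was 0.41. With the group means removed r was 0.77 (permutation within groups, p = 0.0229, adjusted 0.263). For Sod1 and Sod2, r was 0.81 (permutation p = 0.00192, adjusted 0.0170) and rho 0.52 (permutation p = 0.0878, adjusted 0.304). Without the 2 libraries farthest from the median of Sod1 it was 0.47, and with the group means removed it was 0.67 (permutation within groups, p = 0.0408, adjusted 0.263). Leaving out the farthest libraries narrows the range, which can lower r, so it does not show that a relation rests on them. On the log2(FPKM + 0.1) scale, r without the 2 farthest libraries was 0.67 for Nfe2l2 and Nqo1 and 0.82 for Sod1 and Sod2. Nfe2l2 and Hmox1 had r = 0.56 (permutation p = 0.0540, adjusted 0.203), rho = 0.47 (permutation p = 0.126, adjusted 0.304) and r = 0.25 without the 2 farthest libraries. In normal replicate 10, Nfe2l2 was highest and Hmox1 next to lowest of the 12 libraries, and without that library r was 0.81 (permutation p = 0.00200, adjusted 0.0204). That last value passed only once the library was left out. Without it, r was 0.79 for Nfe2l2 and Nqo1 (permutation p = 0.00494, adjusted 0.0247) and 0.81 for Sod1 and Sod2 (permutation p = 0.00272, adjusted 0.0204).

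**Figure D5:**
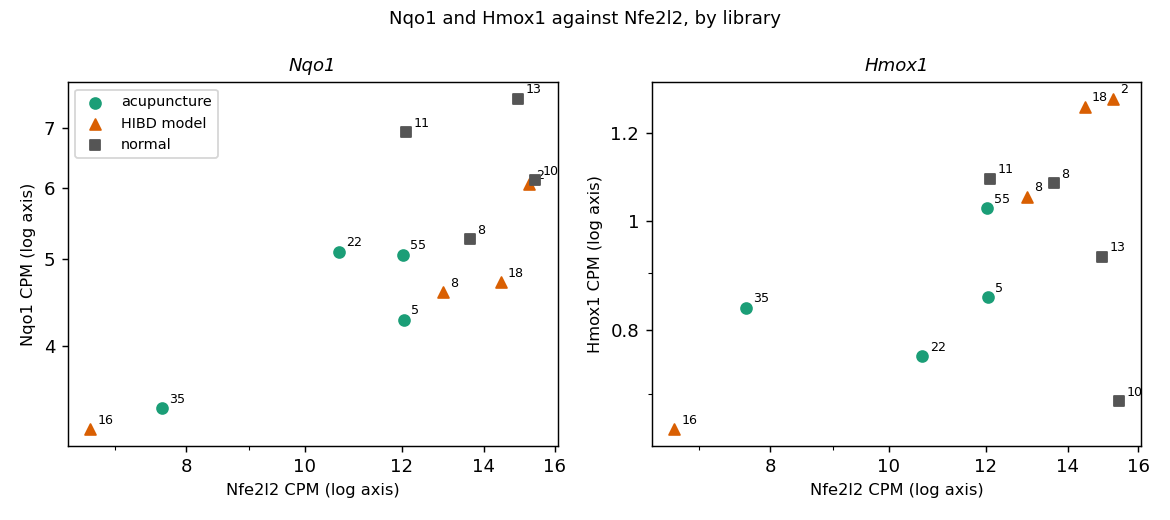
Level of Nqo1 and Hmox1 against that of Nfe2l2 in the same library, in CPM on log axes that do not start at 0. Points are the 12 libraries with their replicate numbers. HIBD model replicate 16 and acupuncture replicate 35, at 6.67 and 7.64 CPM of Nfe2l2, stand apart at the lower left for Nqo1, and normal replicate 10 stands below the others of high Nfe2l2 for Hmox1.

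Over 14758 other genes whose mean log2 CPM was 0 or more, the gene whose log2 CPM was most like that of Nfe2l2 over the 12 libraries was ENSRNOG00000005686, with r = 0.96. For Sod1 it was ENSRNOG00000009977 (r = 0.96), for Sod2 ENSRNOG00000018909 (r = 0.96) and for Nqo1 ENSRNOG00000056275 (r = 0.95). These are the highest of many correlations and are given as a description, without a test. An r of at least 0.9 was reached by 58 genes with Nfe2l2, 58 with Sod1, 49 with Sod2 and 29 with Nqo1, and by 0 genes with Cat or Hmox1.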

How the data were processed

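Total RNA was extracted with Trizol, and libraries were made with a NEBNext Ultra kit, per the labels' protocols. HTSeq 0.6.0 and build Rnor_6.0 are named, with no role, per the submitters' processing notes. Which aligner or assembler ran is not given in the sources used here. One deposited table covers all libraries and holds estimated counts per transcript row, and the per-sample files hold FPKM values that the authors deposited under gene identifiers, a unit read from the values. Rows of both stand in the same order. Over 12003 rows, count divided by FPKM deviated from a row factor times a library factor by a median of 0.00114%, against 18.1% with rows shuffled. The number of reads behind a value is unknown, so no counting interval is given. The deposited values are whole numbers and were not rounded further.

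Rows were summed per gene. edgeR 4.0.16 in R 4.3.3 (TMM, filterByExpr by group, quasi-likelihood test) was fitted to all 12 libraries, with Benjamini-Hochberg adjustment over 27885 genes and a threshold of 0.05. Values for 1 gene are TMM-scaled CPM, mean ± SD. Standard errors and 95% intervals come from the F statistic. The edgeR procedure was tested on simulated data. Correlations use 100000 permutations. limma 3.58.1 and DESeq2 1.42.0 served as alternatives. The members, lists and tests were chosen with earlier results of these data known, and the gene symbols are those given with the 6 identifiers. All 6 members are named by rule, with the most alike gene for the 4 members of highest r. A list of other antioxidant genes and markers of cell types needed gene symbols for the Ensembl identifiers and were not analysed here. Promoters are RefSeq's, build GRCr8.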

Additional observations from a re-analysis of the deposited data

How the results depend on the processing

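No paired analysis was possible because only the number 8 is shared by libraries of 2 groups. The count of members called, 0 in each comparison, was 0 to 1 over the single libraries left out, between HIBD model and normal as between acupuncture and normal. It was 1 with DESeq2 between acupuncture and normal, and 0 between acupuncture and HIBD model under all 19 alternatives. The gene called was Sod1, with normal replicate 10 left out or, with DESeq2, from all 12 libraries. On the log2(FPKM + 0.1) scale without that library, Sod1 passed in both comparisons with normal. Sod2 also passed there between acupuncture and normal (limma adjusted p = 0.0499). Sod1 and Nqo1 kept log2 fold changes below 0 against normal under all 19 alternatives (Sod1 from -0.41 to -0.08 in HIBD model and from -0.49 to -0.15 in acupuncture, Nqo1 from -0.63 to -0.26 and from -0.66 to -0.33). With a trend on transcript length removed, Sod1 had -0.20 in HIBD model and -0.26 in acupuncture, against -0.32 and -0.37 as reported. Sod2 then had -0.07 and -0.08 against normal, and -0.19 and -0.18 as reported. Hmox1 in HIBD model moved away from 0, from 0.17 to 0.29. The removed trend on transcript length and the share of assembled loci as covariate were chosen after seeing the data, as were the values without normal replicate 10 for the ratio, the FPKM scale and the relation to that share. The relation to the share was itself not planned in advance. On the log2(FPKM + 0.1) scale, Hmox1 turned to -0.096 between HIBD model and normal without that library, against 0.043 with it. Between HIBD model and normal, the sign turned for Sod2 with the share as covariate (0.070) and for Cat with Ensembl transcripts only (0.0086) or the length trend removed (0.0062). For Nfe2l2 the values ranged from -0.30 to 0.020 over the single libraries left out, with 0.020 without HIBD model replicate 16. Between acupuncture and normal it turned with the share as covariate for Sod2 (0.045) and Hmox1 (0.41). Between acupuncture and HIBD model, where Sod2 had 0.01, it was -0.00094 with RLE, -0.00089 with DESeq2, -0.0085 with at least 1 CPM in 4 libraries, -0.029 with log2(FPKM + 1) or log2(FPKM + 0.1), -0.00080 with the 2 groups only, -0.0079 with the length trend removed and -0.025 with the share as covariate. Over the single libraries left out it ranged from -0.045 to 0.028. There Cat ranged from -0.084 to 0.030 and Nqo1 from -0.20 to 0.086. The cause was not tested. Of the 15 pairs, 12 correlations passed on the log2(FPKM + 0.1) scale and 0 with the group means removed, where that of Sod2 with Cat was -0.22 and with Nfe2l2 -0.032. The share of all pairs of genes was not determined on either scale. Transcripts added by the assembly held 0% of each gene in both units. Over all genes, the number called ranged over the alternatives from 0 to 3745 between HIBD model and normal, from 0 to 185 between acupuncture and HIBD model and from 0 to 4312 between acupuncture and normal, with 27, 0 and 23 in the test as reported.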
